A study of Mus musculus with 8 samples.

Results

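Metallothioneins and the genes that sense and move zinc were followed in mouse neural stem cells (NSCs) by microarray, before and after irradiation (irr). The set holds 7 genes. They are the metallothioneins Mt1, Mt2 and Mt3, the metal-sensing transcription factor Mtf1, the zinc exporter Slc30a1 and the zinc importers Slc39a1 and Slc39a14. Probe sets were picked by gene symbol, as every one whose only annotated symbol is one of these. This gave 16 of the 45101 probe sets on the array and 7 of 18193 genes named by a single symbol. The 7 genes were chosen with earlier results of these data known. A probe set is a group of short probes that together read a transcript, and 12 of the 16 had an intensity over 100 on at least 1 array, the filter used for all tests (a log2 value of 6.64). The NSCs had been made in culture from mouse ES (embryonic stem) cells, and EGF and FGF2 were added to keep them in division. Of the 8 arrays, 4 were of NSCs that were not irradiated and 4 were of NSCs taken on day 7 after 10 Gy of X-rays. Every group was grown in the same serum-free medium, no genotype differed between them, and the labels give no day for the non-irr cultures. They describe biological quadruplicates, but do not tie the arrays to separate derivations of NSCs, so that p-values measure the spread between these cultures.

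Metallothioneins are small, cysteine-rich proteins that bind zinc and copper and hold them in a pool from which they can be released. When free zinc rises in a cell, MTF1 binds it, enters the nucleus and switches on metallothionein genes and the gene of the exporter ZNT1 (Slc30a1) through short DNA motifs called metal response elements. Transporters of the SLC30 family lower zinc in the cytosol by moving it out of the cell or into vesicles, and those of the SLC39 family raise it. In the brain, astrocytes are a known source of MT1 and MT2, and MT3 is a form typical of neural tissue. Metallothionein genes are also known to respond to glucocorticoids, to cytokines that act through STAT3 and to oxidative stress.

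Mt1, Mt2 and Mt3 lie side by side on the same strand of mouse chromosome 8 (GRCm38.p6, positions from RefSeq). Mt3 spans chr8:94152607-94154148, Mt2 chr8:94172618-94173567 and Mt1 chr8:94178883-94180327, with 5315 bases between the last pair. Mtf1 is at chr4:124802549-124849800, Slc30a1 at chr1:191906697-191913248, Slc39a1 at chr3:90248190-90253613 and Slc39a14 at chr14:70303467-70351452. RefSeq promoter windows of 300 bases (250 before and 50 after an annotated start) matched 6 of the 7 genes, and Slc39a14 is named only. The windows were searched on both strands for the core of the metal response element, written as TGCACNC or TGCGCNC with N for any base, and overlapping matches were counted at each position. Of 32851 such windows of all genes, 25.7% held at least 1 match, 7.11% at least 2 and 1.97% at least 3. There were 4 matches for Mt2, 3 for Mt1, 2 for Slc30a1 and 1 for Mt3, and 0 for Mtf1 and Slc39a1. The 250 bases before the Mt2 start, which hold 3 of its 4 matches, and those before the Mt3 start, which hold none, are shown because the probe sets of these neighbouring genes differed in their change. The other Mt2 match and the Mt3 match begin after the start, at bases 5 and 28 counted from it, and lie outside these stretches. Capitals mark the matches, and both stretches are on the plus strand.
Mt2, chr8:94172368-94172617: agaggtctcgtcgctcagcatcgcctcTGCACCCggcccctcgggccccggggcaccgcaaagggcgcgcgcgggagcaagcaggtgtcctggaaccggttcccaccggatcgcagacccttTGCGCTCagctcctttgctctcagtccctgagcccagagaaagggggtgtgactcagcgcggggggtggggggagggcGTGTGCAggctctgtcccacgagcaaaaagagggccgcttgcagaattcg
Mt3, chr8:94152357-94152606: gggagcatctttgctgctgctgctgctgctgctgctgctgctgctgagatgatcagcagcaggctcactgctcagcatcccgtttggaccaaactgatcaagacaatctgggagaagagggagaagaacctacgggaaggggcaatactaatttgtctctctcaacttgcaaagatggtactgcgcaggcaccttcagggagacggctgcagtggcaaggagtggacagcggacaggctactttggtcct
The matches of Mt1 and Slc30a1 are shown with 10 bases on either side, since these are the other members known as MTF1 targets. The annotated starts used were chr8:94179089 for Mt1 and chr1:191906781 for Slc30a1, which lie inside the gene spans given above. Counted from these, the matches of Mt1 begin at bases -23, 3 and 21 and those of Slc30a1 at -43 and 31. Their place relative to other starts of these genes may differ, and the starts used in NSCs were not measured.
Mt1, chr8:94179056-94179082: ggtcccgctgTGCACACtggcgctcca
Mt1, chr8:94179081-94179107: cagggagctcTGCACTCcgcccgaaaa
Mt1, chr8:94179099-94179125: gcccgaaaagTGCGCTCggctctgcca
Slc30a1, chr1:191906728-191906754: cgggggttccGAGTGCAaagcaaagtt
Slc30a1, chr1:191906801-191906827: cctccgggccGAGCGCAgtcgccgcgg
All are on the plus strand, and the Slc30a1 matches read the motif on the opposite strand. These letters are matches to a motif, and binding of MTF1 was not measured. Whether the matches have a part in the changes after irr was not tested.

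At day 7 after irr, 6 of the 7 genes were higher, each gene being represented by its brightest probe set, and none was lower by limma (0 also at an unadjusted p under 0.05). Among the 6 is Mtf1, whose probe sets were called in opposite directions, so its place in this count rests on the choice of probe set. Mt3 did not pass the test. The changes of Mt1 and Mt2 were at least 2-fold and the others were smaller. These counts need the background, because irr altered much of the transcriptome. Of all 11372 genes tested, 77.3% were called at an adjusted p under 0.05, 40.2% as higher and 37.1% as lower, and 8.90% were higher by at least 2-fold. The median log2 fold change was 0.65 over the 7 genes and 0.01 over all genes. Because the genes were chosen with earlier results of these data known, the counts and this median do not test the set. By probe set, 7 of the 12 past the filter were higher, 1 was lower and 4 were not called, while of all 21919 probe sets 75.1% were called, 38.0% higher and 37.1% lower. For 8 of these 12 the irr and non-irr arrays did not overlap, as for 69.6% of all probe sets. The dimmer Mt1 probe set, counted as higher and as not overlapping, passed the filter only through the irr arrays.

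**Figure D1:**
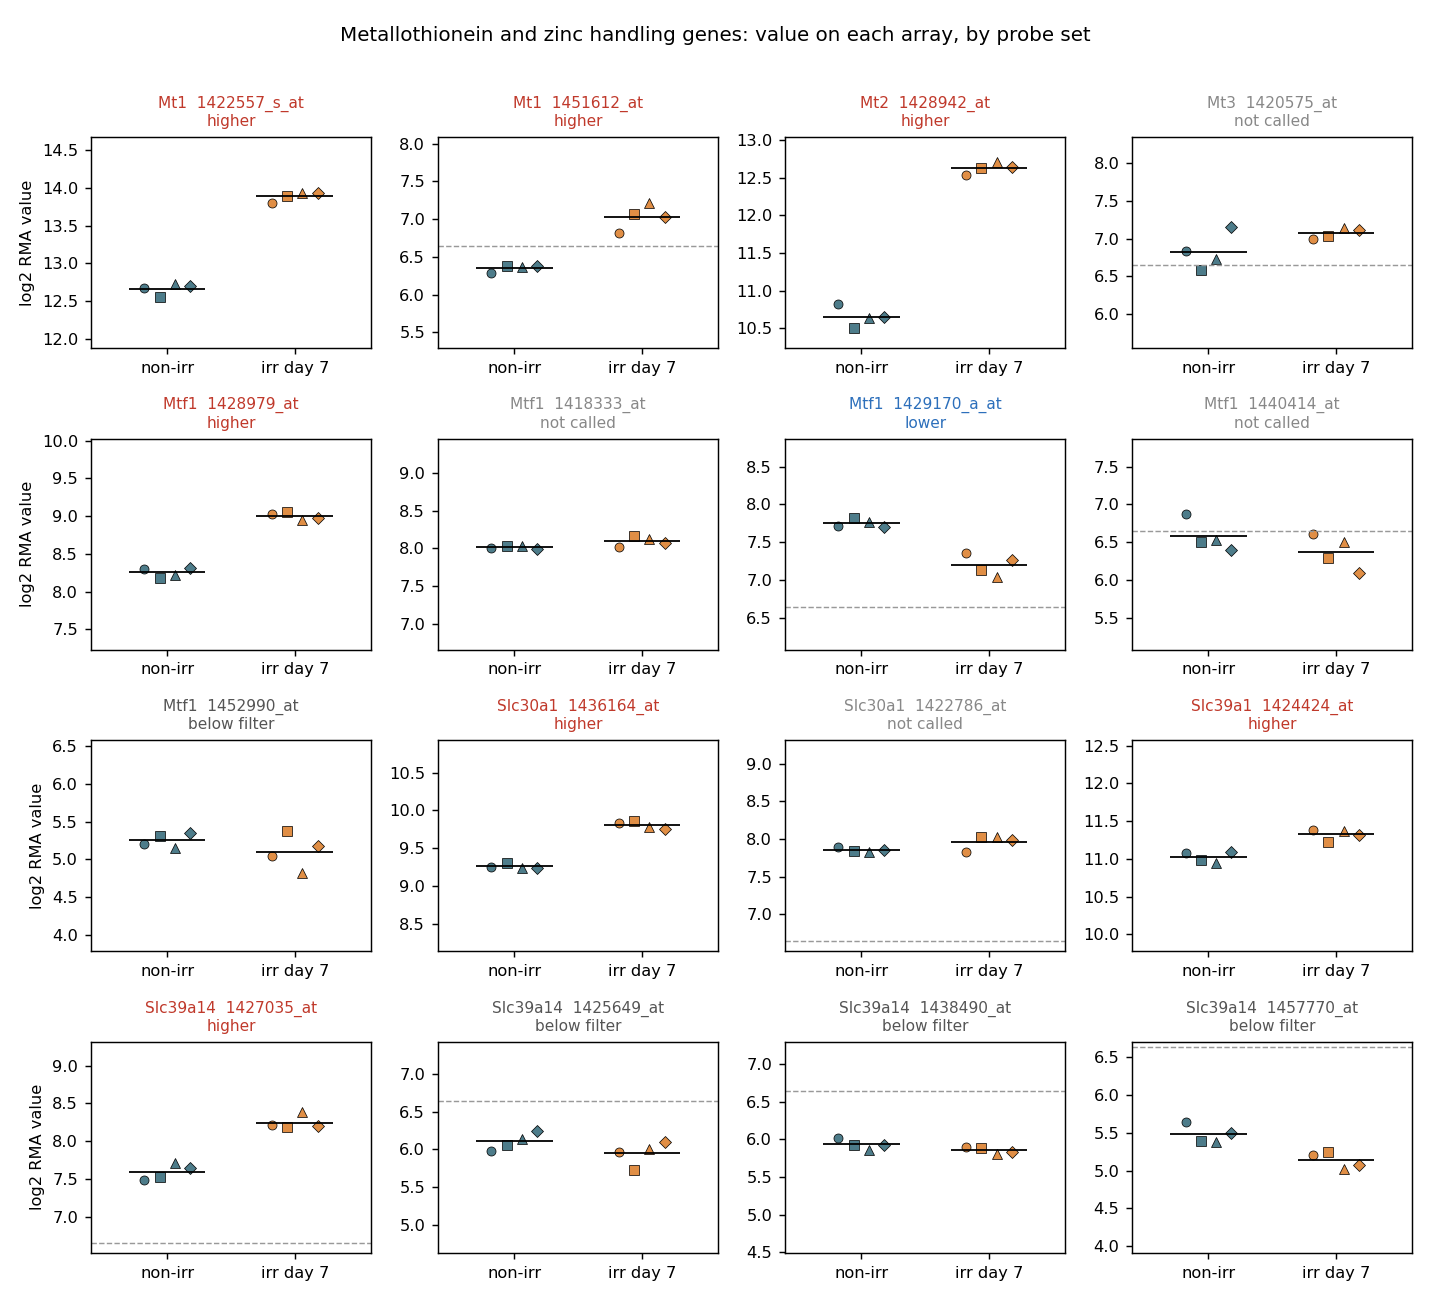
Log2 RMA value (vertical axis) of each of the 16 probe sets on each of the 4 non-irr (blue) and 4 irr (orange) arrays. Symbols mark replicates 1 to 4 (circle, square, triangle, diamond), bars are group means, the dashed line, where in range, is the intensity filter at 6.64, and every panel spans the same height on the log2 scale, so that the step of Mt2, from 10.65 to 12.62, can be set against that of the other genes.

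Mt2 had the largest change of the 7 genes, each by its brightest probe set. Its only probe set read log2 values of 10.82, 10.51, 10.63 and 10.65 on the non-irr arrays and 12.53, 12.62, 12.71 and 12.64 on the irr arrays. All irr arrays lay far above all non-irr arrays, and the spread within a group was small beside the step. The log2 fold change was 1.97 (standard error 0.07, limma, adjusted p = 6.9e-09), or 3.92-fold, and 1.91% of all genes rose by as much or more.

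Mt1 rose as well, by less on its probe sets. Its brightest probe set read 12.67, 12.55, 12.72 and 12.70 (log2) on the non-irr arrays and 13.79, 13.89, 13.93 and 13.93 on the irr arrays. Mt1 was thus already bright in dividing NSCs and brighter on every irr array, on a scale whose highest value for any probe set is 14.98. The log2 fold change was 1.23 (standard error 0.05, limma, adjusted p = 3.2e-08), or 2.34-fold. The ending of this probe set's identifier (_s_at) marks probes that may match more than 1 transcript, so that a share of its signal from another metallothionein cannot be told from these values. The other Mt1 probe set was dim, at 6.28, 6.37, 6.37 and 6.38 on the non-irr arrays, all below the filter, and at 6.82, 7.06, 7.22 and 7.02 on the irr arrays, all above it. It too was higher, by 0.68 on that scale (standard error 0.08, limma, adjusted p = 2.6e-05). With the filter in place of the dim group, that is at least 1.31-fold. This probe set passed the filter only through the irr arrays and could not be called lower, so it is no separate support for the increase. With probe sets of plain identifiers alone, this dim one stands for Mt1, and whether the change reached 2-fold cannot then be told.

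The step of the Mt2 probe set exceeded that of the brightest Mt1 probe set. The log2 ratio of the Mt2 to the brightest Mt1 probe set, taken within each array, rose by 0.75 from non-irr to irr NSCs. The groups did not overlap (two-sided exact permutation test, p = 0.029, as low as 4 arrays against 4 can reach). Adjusted over 4 such pairs, the value was the same. These were picked from the possible pairs of member probe sets, and the adjustment does not cover that choice. For the Mtf1 pair, with probe sets that separated in opposite directions, no other value was possible. The steps of the 2 Mt1 probe sets differed as well, by 0.54 (two-sided exact permutation test, p = 0.029). How far the 2 genes differ in RNA therefore cannot be told from these values.

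Mt3 stood apart from its neighbours. Its probe set read log2 values of 6.84, 6.58, 6.72 and 7.15 on the non-irr arrays and 6.99, 7.03, 7.14 and 7.11 on the irr arrays. The groups overlapped, since non-irr replicate 4 was above every irr array, and all values were close to the filter. The log2 fold change was 0.25, with a 95% confidence interval of 0.01 to 0.49 and adjusted p = 0.059 from limma. A change of the size seen for Mt2 lies outside this interval. Because the values lie so close to the filter, the interval does not bound the change of Mt3 RNA. Without non-irr replicate 4 Mt3 was called higher (0.36, adjusted p = 0.0019 from limma), as it was with arrays centred on reference genes (0.36, adjusted p = 0.0091 from limma). At the same 0.25 it was also called in the fit on means of probe sets by gene (adjusted p = 0.044 from limma).

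Mtf1, the zinc sensor, gave a different answer by probe set. The brightest read log2 values of 8.29, 8.18, 8.23 and 8.32 on the non-irr and 9.03, 9.05, 8.95 and 8.98 on the irr arrays. That is a clear separation upward, by 0.75 (log2, standard error 0.05, adjusted p = 3.9e-07 from limma). Another, the third in brightness, read 7.72, 7.82, 7.77 and 7.70 against 7.36, 7.13, 7.03 and 7.26, and separated downward, at -0.56 (standard error 0.07, adjusted p = 5.7e-05 from limma). Of the remaining 3, the second brightest gave a log2 fold change of 0.08 (adjusted p = 0.16 from limma, 95% confidence interval -0.03 to 0.18), a dim one gave -0.20 near the filter (adjusted p = 0.18 from limma, 95% confidence interval -0.49 to 0.09), and the last stayed below the filter on all arrays. The mean of the Mtf1 probe sets past the filter was 0.02, which ends the call of the gene (adjusted p = 0.77 from limma), so no direction for total Mtf1 RNA can be given. Control probes toward the 3′ end of a transcript exceeded those toward its 5′ end by more in irr NSCs, by 0.42 to 0.58 against 0.22 to 0.29 (log2) for actin and 0.69 to 1.20 against 0.21 to 0.65 for the transferrin receptor, while those of Gapdh overlapped (-0.09 to -0.03 and -0.13 to -0.03). The control probes describe whole arrays. The part of this gap in the disagreement of the Mtf1 probe sets, or in that between probe sets of other genes, was not tested.

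**Figure D2:**
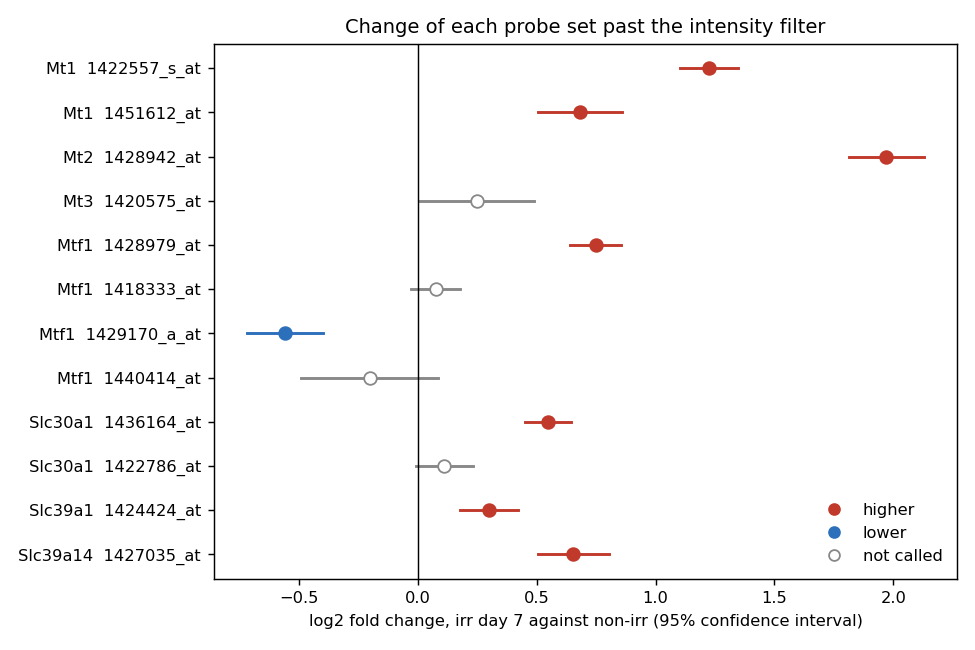
Log2 fold change (horizontal axis, irr day 7 against non-irr NSCs, 4 arrays each) of the 12 probe sets past the filter, with the 95% confidence interval from limma. Filled points were called higher (red) or lower (blue) at an adjusted p under 0.05 and open points were not. Mt2 lies farthest to the right at 1.97, and the Mtf1 probe sets lie on both sides of 0, from -0.56 to 0.75.

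The zinc exporter Slc30a1 rose by less than 2-fold. Its brighter probe set read log2 values of 9.25, 9.31, 9.24 and 9.24 on the non-irr arrays and 9.83, 9.86, 9.78 and 9.76 on the irr arrays. Both groups were tight and did not overlap, and the change was 0.55 (standard error 0.04, adjusted p = 1.7e-06 from limma), or 1.46-fold. The other probe set read 7.90, 7.84, 7.83 and 7.85 against 7.83, 8.02, 8.03 and 7.98, with irr replicate 1 among the non-irr values. Its change of 0.11 did not pass the test (adjusted p = 0.083 from limma, 95% confidence interval -0.01 to 0.23), although it did without irr replicate 1 (0.16, adjusted p = 0.011 from limma). The steps of these probe sets differed by 0.44 (two-sided exact permutation test, p = 0.029).

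The importer Slc39a14, which also carries iron and manganese, read log2 values of 7.48, 7.53, 7.71 and 7.64 on the non-irr and 8.21, 8.19, 8.38 and 8.19 on the irr arrays by its only probe set past the filter. The irr arrays were all higher, by 0.65 (standard error 0.07, adjusted p = 1.1e-05 from limma), or 1.57-fold. The other 3 probe sets of this gene stayed below the filter on all arrays, with differences of -0.34 to -0.08 in the fit without a filter, so the increase rests on 1 of 4. Slc39a1, an importer of the cell surface, read 11.07, 10.99, 10.95 and 11.09 on the non-irr arrays and 11.38, 11.22, 11.37 and 11.31 on the irr arrays. It was higher on every irr array, by a small step of 0.30 (standard error 0.05, adjusted p = 6.5e-04 from limma), or 1.23-fold, and 32.3% of all genes rose by as much or more.

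**Figure D3:**
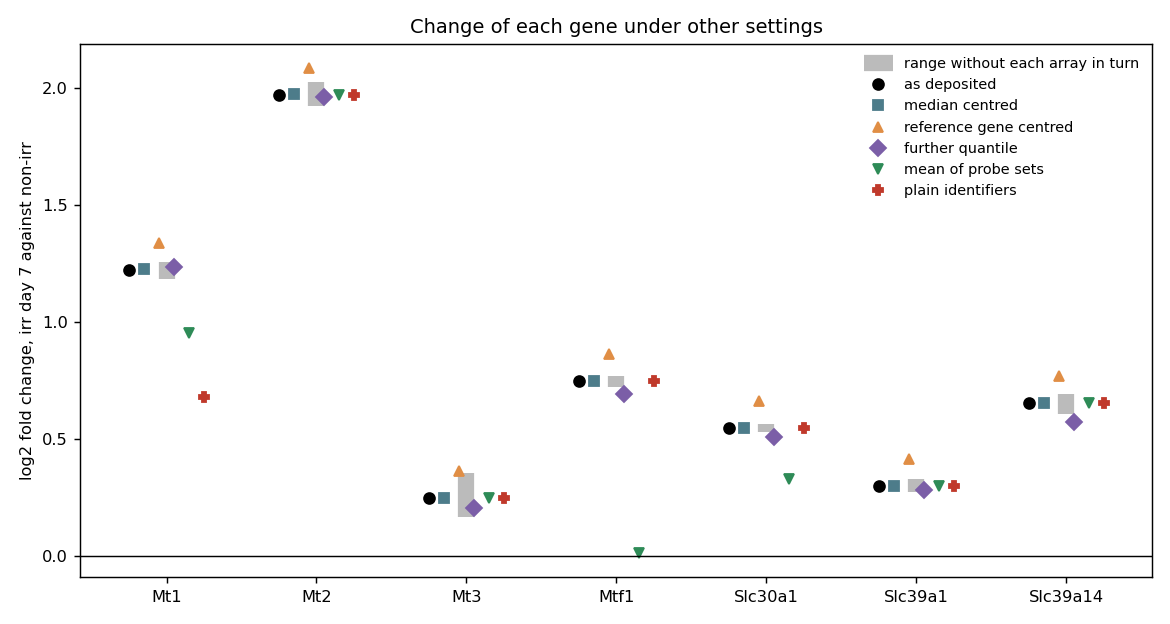
Log2 fold change (vertical axis, irr day 7 against non-irr NSCs) of each of the 7 genes as deposited and under other scalings and choices of probe set. Gray bars span the values when each array in turn was left out; with arrays centred on reference genes all 7 genes moved up, and the mean of the probe sets took Mtf1 from 0.75 to 0.02 and Mt1 from 1.23 to 0.95.

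In the wider zinc transporter families, most measured genes were higher by less than 2-fold. Of all genes 40.2% were higher and 37.1% lower, and whether the families differ from that was not tested. Of the 10 exporters of the SLC30 list, 7 were measured, of which 5 were higher, 1 was lower and 1 was not called, with a median log2 fold change of 0.22. Slc30a4, an exporter into vesicles, rose by 0.67 (standard error 0.10), Slc30a1 by 0.55, Slc30a9 by 0.43, Slc30a6 by 0.22 and Slc30a7 by 0.21. Slc30a3, the transporter that loads zinc into synaptic vesicles, was lower at -0.19 (standard error 0.07, limma, adjusted p = 0.034), a call lost when non-irr replicate 2 or 4 or any irr replicate was left out (-0.20 to -0.12). Slc30a2, Slc30a8 and Slc30a10 were below the filter. Slc30a7 was called by 1 of 2 probe sets, and was not called from the mean of both (0.08, adjusted p = 0.13 from limma) or without irr replicate 2 (0.18, adjusted p = 0.051 from limma). None of these changes reached 2-fold.

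Of the 14 importers of the SLC39 list, 10 were measured, of which 7 were higher, 1 was lower and 2 were not called, with a median of 0.43. The largest step was that of Slc39a12, an importer known from brain. Its probe set read log2 values of 4.49, 5.14, 4.61 and 4.42 on the non-irr arrays, all below the filter, and 7.97, 8.19, 7.98 and 8.23 on the irr arrays, all above it. It was thus higher by at least 2.73-fold (adjusted p = 2.3e-08 from limma, computed with the dim non-irr values). Slc39a12 passed the filter only through the irr arrays and could not be called lower. The count of 7 and the median include it. A second probe set stayed below the filter on all arrays. Slc39a3, at 0.85 (standard error 0.06), Slc39a13 at 0.70, Slc39a14 at 0.65, Slc39a11 at 0.55, Slc39a9 at 0.30 and Slc39a1 at 0.30 were also higher. Slc39a3 was called in both directions, since its other probe set fell by 0.21 on the log2 scale (adjusted p = 0.0087 from limma). On the non-irr arrays the falling probe set was the brighter, at a mean of 8.10 against 7.87 (log2). The irr arrays thus decided which of them stands for Slc39a3, and no direction for the gene can be given. Slc39a10, an importer whose gene MTF1 is known to repress, read log2 values of 11.44, 11.54, 11.36 and 11.44 on the non-irr arrays and 10.99, 10.89, 10.76 and 10.81 on the irr arrays. It was lower on all irr arrays, by -0.58 (standard error 0.06, limma, adjusted p = 1.7e-05), and its other probe set read -0.59. The brightest Slc39a6 probe set was not called (0.09), while its other 2 past the filter read -0.53 and -0.50 and were called lower, and Slc39a7 was not called (0.06). Slc39a2, Slc39a4, Slc39a5 and Slc39a8 were below the filter.

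**Figure D4:**
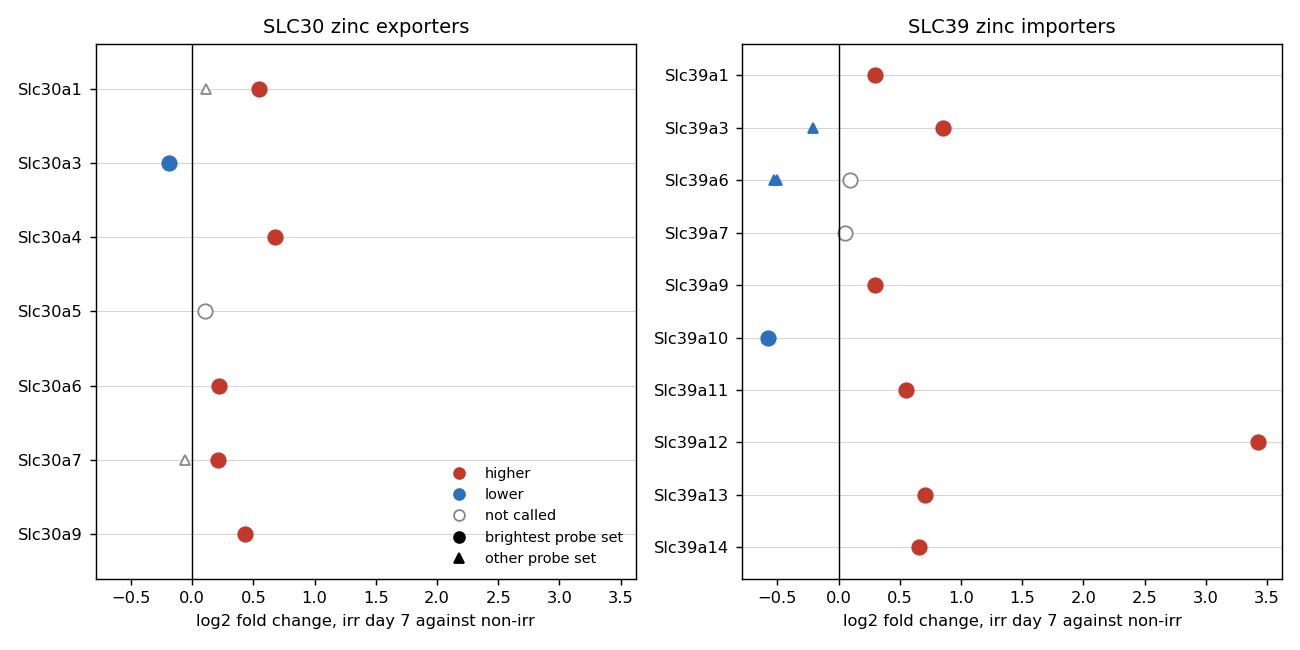
Log2 fold change (horizontal axis, irr day 7 against non-irr NSCs) of every probe set past the filter of the SLC30 and SLC39 zinc transporters. Circles are the brightest probe set of a gene and triangles the others, filled when called higher (red) or lower (blue). Slc39a12 lies apart at 3.42, a size that is uncertain because its non-irr arrays are below the filter, and Slc39a10 is the only importer whose brightest probe set was lower.

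Other lists that bear on metallothioneins are given by their counts, to be read against the 40.2% of all genes that were higher and the 37.1% that were lower. Of 7 genes linked to MTF1, 4 were higher (among them Slc30a1 and the stress-response gene Ndrg1, 0.37), 2 were lower (Slc39a10 and Csrp1) and 1 was not called, with a median of 0.22. Of 10 measured genes of copper handling, 4 were higher, 3 were lower and 3 were not called (median 0.05), with Slc31a2, a copper transporter-like protein, at 0.61, Commd1 at -0.60 and Ccs, the copper chaperone of superoxide dismutase, at 0.34. Of 8 genes induced by glucocorticoids, 7 were higher, among them Tsc22d3 (0.99), Zbtb16 (at least 1.14-fold) and Klf9 (0.42), and 1 was lower (median 0.40). Of 7 measured STAT3 targets, 6 were higher, with a median of 1.87, and Bcl3 and Timp1 were below the filter. Lcn2, Osmr and Serpina3n were below the filter on all non-irr arrays and were at least 2.53-fold, 1.34-fold and 3.16-fold higher. They passed the filter only through the irr arrays, as did Zbtb16, and could not be counted as lower. The counts and medians of these lists include them. Of 6 NRF2 targets of oxidative stress, 3 were higher, 1 was lower and 2 were not called (median 0.20), with Hmox1, which breaks down heme, at 2.23, the sulfiredoxin gene Srxn1 at 2.16 and the thioredoxin reductase gene Txnrd1 at -0.50. Whether any of these had a part in the increase of Mt1 and Mt2 was not tested.

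Markers of astrocytes, and some of mesenchymal cells and microglia, were higher along with Mt1 and Mt2, while those of other cell types were mixed, lower or not called. All 9 annotated markers of a neural stem cell list passed the filter, with 4 higher, 2 lower and 3 not called (median 0.07). Of 10 astrocyte markers, 9 were higher and 1, Gfap, was called lower by its brightest probe set, and the summed intensity of the list was 11957 to 12924 on the non-irr and 36295 to 39514 on the irr arrays. That Gfap probe set lay near the filter (mean log2 value 6.80 non-irr, 6.62 irr) and its groups overlapped. It was the only 1 of 3 past the filter, so no direction for Gfap is read from it. Of 6 mesenchymal markers 3 were measured and higher, with the defining genes Col1a1, Col1a2 and Pdgfrb below the filter and a summed intensity of 1048 to 1097 against 2765 to 2953. Of 6 microglia markers 2 were higher, with Aif1, Cx3cr1 and Itgam below the filter and a sum of 407 to 431 against 658 to 748. The rise of these 3 sums leans on single genes. They are Apoe (mean log2 value 9.29 non-irr, 13.94 irr), Col3a1 (9.61 and 11.15) and Cd68 (5.46 and 8.10). Of 6 measured neuronal markers 1 was higher and 4 were lower, and their sums overlapped. Aqp4, Dcn, Lum, Cd68 and Syt1, counted as higher in these marker lists, passed the filter only through the irr arrays. They could not be counted as lower. None of 3 measured oligodendrocyte and 2 measured pluripotency markers was called, with Pou5f1, Nanog and Zfp42 below the filter, and of 5 endothelial markers only Kdr was measured and it was lower. The part of these cell types in the metallothionein increase was not tested, and in bulk RNA more cells that express a gene and more RNA in each cell cannot be told apart.

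Over the 8 arrays, the genes whose log2 values correlated best with those of Mt1 were Man1c1, Syt13, Smim14, Slc35f3 and Tmem19, with Pearson's r of 0.999 to 1.00. For Mt2 they were Gstm1, a glutathione transferase, Fam43a, Slitrk1, Hsd17b11 and Adipoq, at 0.999. All points share the step between the groups, and 2729 genes for Mt1 and 2669 for Mt2 reached an r of 0.95 of 11371, so that these names describe a common step and no more. For Mt3, which lacks such a step, 4 genes did, and the closest were Cnnm1 (0.98), Igfals (0.97), A2m (0.97), Cd248 (0.96) and Kdelr1 (0.94). The Mt3 values lay near the filter. Whether these r exceed the highest that 8 arrays give by chance over 11371 genes was not tested, so these names too are a description only.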

How the data were processed

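Affymetrix GeneChip mouse genome arrays were hybridized with RNA of 4 non-irr and 4 irr (day 7) NSC cultures. The authors read the arrays with GCOS and normalized them by RMA, and the deposited values are log2 RMA values of 45101 probe sets, from 2.48 to 14.98. Detection calls were not used here. Symbols came from the platform annotation and were updated by Entrez number for 34754 of 34958 probe sets with a single symbol. Probe sets with several symbols (932) or none (9211) and 64 controls were left out by gene. An intensity over 100 on at least 1 array was required, which left 21919 probe sets and 11372 genes. Groups were compared with limma 3.58.1 in R 4.3.3 (lmFit, eBayes, two-sided), with Benjamini-Hochberg adjustment over all probe sets kept and calls at an adjusted p under 0.05. The code was tested on simulated data. Where a group lay below 100 on all arrays, folds are bounds against 100. Arrays have no read depth, so that their number limits the precision. Replicates correlated at 0.996 to 0.998.

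The members and the gene lists were chosen with earlier results of these data known. Named are all members, called SLC30 and SLC39 genes, up to 3 called genes with the largest change of the other lists (MTF1-linked, copper, glucocorticoid, STAT3, NRF2; marker lists by counts), and the 5 genes closest to Mt1, Mt2 and Mt3. Alternatives were 3 filters, 3 scalings (median, 9 reference genes, quantile), trend and robust settings, array weights, a replicate block, a test against 1.5-fold, other choices of probe set, and leaving out arrays. Figures were drawn with matplotlib 3.10.9.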

Additional observations from a re-analysis of the deposited data

Results flagged for a closer look

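In 2 of 32 groups of 4 arrays, a member probe set had a value set far from the others of its group, and chance alone gives about 1 group in 20. For the dim Mt1 probe set, non-irr replicate 1 read 6.28 (log2) against 6.37 to 6.38 on the other non-irr arrays, all of them below the intensity filter. For Slc39a14, irr replicate 3 read 8.38 against 8.19 to 8.21 on the other irr arrays, and without it the log2 fold change was 0.61.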

How the results depend on the processing

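The increases of Mt1 and Mt2 kept their direction and their call under all 22 alternatives, with log2 fold changes of 0.68 to 1.34 for Mt1 and 1.92 to 2.09 for Mt2, and no member gene was lower by its brightest probe set in any of them. Against a 1.5-fold change, 3 members and 3 member probe sets were higher (Mt1, Mt2 and Mtf1) and 0 probe sets lower, 0 exporters were higher and 0 lower, and 2 importers were higher and 0 lower (0 at an unadjusted p under 0.05 too, for each count of 0). Without a filter, 2 member probe sets and 2 importers were lower. Centring on reference genes shifted the median change over all probe sets by 0.12 (log2), moved the higher share of calls from 50.6% to 62.0% and left 0 exporters lower. These genes were themselves not all stable (Pgk1 fell by 0.66 on the log2 scale). With the mean of all probe sets, 1 member was 2-fold and 2 importers were lower, and Slc39a6 turned to -0.31 (adjusted p = 0.023 from limma). With plain identifiers 1 member was 2-fold, Mt1 being left with a probe set that gives only a bound. The second brightest Mtf1 probe set turned to -0.0027 with a further quantile normalization. Leaving out each array in turn gave 0 to 1 lower exporters, and leaving out irr replicates 3 and 4 together or 1 and 2 together gave 0. Apart from the settings' own construction, the cause of these changes was not tested. Replicate numbers were not shown to pair the cultures: the residuals of same-numbered arrays correlated at 0.04, 0.38, -0.21 and 0.51. With the replicate block, 2 member probe sets were lower in place of 1, and Mt3 was called higher (adjusted p = 0.044 from limma).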
